A study of Mus musculus with 16 samples.

Results

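The 10 genes described here are transcription factors and targets of the integrated stress response, measured as mRNA in mouse heart: Atf4, Atf5, Atf3, Ddit3, Cebpb, Cebpg, Nupr1, Trib3, Chac1 and Sesn2. They were chosen by symbol, and 11 of the 36499 rows of the deposited count table carry these symbols, because a second row for Ddit3 is present and holds 0 counts in all 16 libraries. All 10 genes were among the 15255 tested. Cardiac tissue of mice on normal chow was sequenced in 4 genotypes with 4 libraries each: knockout of both Clpp and Fgf21 (double KO), knockout of Clpp (Clpp KO), knockout of Fgf21 (Fgf21 KO) and wild type. The Clpp and double knockouts came from floxed alleles deleted by Cre under the β-actin promoter, so the loss was whole-body, and how the Fgf21 KO mice were bred is not described in the labels. Age and sex are not given. The labels number the libraries of a genotype and do not say that each came from its own animal, so p-values measure the spread between libraries, which may be technical.

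The integrated stress response starts when a kinase phosphorylates the translation factor eIF2, which slows general translation while favouring the mRNAs of ATF4 and a few related factors. ATF4 then pairs with C/EBP proteins on composite C/EBP-ATF response elements and raises genes for amino acid synthesis, transport and tRNA charging, and with stronger stress CHOP, the product of Ddit3. Because ATF4 is controlled mainly by translation, its mRNA level need not follow its protein level. In heart muscle, defects of mitochondrial gene expression are known to engage this programme. In the mitochondrial matrix, CLPP forms the proteolytic chamber of the ClpXP protease. FGF21 is a secreted hormone and is itself a known target of ATF4.

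Both deleted genes were low in the libraries labelled as lacking them. Levels are given in CPM, counts relative to library totals normalised with the trimmed mean of M-values method (TMM). With n = 4 per genotype and errors as SD, Clpp averaged 8.32 ± 1.03 CPM in double KO and 8.62 ± 0.843 CPM in Clpp KO, against 37.7 ± 7.48 CPM in Fgf21 KO and 33.6 ± 6.49 CPM in wild type. Fgf21 held 0 counts in all 8 libraries that lack it, 6 to 28 in Clpp KO and 0 to 5 in wild type. Totals ran from 36260545 to 51820727 counts per library. Counts from mitochondrial DNA made up 56.1% to 60.8% of the 8 libraries without Clpp and 25.5% to 39.4% of the other 8. Under scaling by library size alone, the median log2 fold change of all genes in Clpp KO against wild type was -0.78. TMM is used here, and values with library size alone are given beside calls and for many of the genes that were not called. The part of the mitochondrial share in the results was not tested. Ventricular markers were abundant in every library. Atrial markers were not even: their summed level was 232 to 1529 CPM in double KO, 263 to 3662 in Clpp KO, 421 to 2993 in Fgf21 KO and 167 to 10321 in wild type, where replicates 2 and 4 held 10321 and 6570 and replicates 1 and 3 held 174 and 167. In the wild-type group, replicates 2 and 4 were also higher in fat markers (57.3 and 198 CPM, against 15.6 and 14.0), fibroblast markers (1429 and 937, against 652 and 655), smooth muscle markers (888 and 1344, against 661 and 677) and nerve markers (42.2 and 33.4, against 16.7 and 16.2). In Clpp KO against wild type, edgeR called lower 2 of 4 neutrophil markers and 1 each of the endothelial, smooth muscle and nerve markers. Red blood cell markers summed to 10961 CPM in double KO replicate 4, against 637 to 1861 in the rest of its genotype. Y-linked genes, in CPM of the library totals without TMM factors, summed to 4.19 in wild-type replicate 2 and to 47.5 to 81.7 in the other 15 libraries. The part of these differences in the results was not tested. Wild-type replicates 1 and 3 were also the closest pair of libraries within any genotype. Values without wild-type replicates 2 and 4 are therefore given where they change a result. In tissue RNA, fewer cells of a type and less RNA per cell cannot be told apart.

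The composite element is the sequence through which ATF4 is known to act, so the promoter windows were searched for it. RefSeq windows of GRCm38.p6, from 250 bases before to 50 after each start, were found for all 10 genes. The element was searched as TGATGNAA on both strands, and 4 of the 10 genes hold it, against 4.51% of 27025 genes with a window. All 4 lie in the reverse orientation, and the capitals mark the match within 30 bases read 5′ to 3′ on the strand of the gene. The Atf3 match spans bases -110 to -103 from the start (chr1:191183425-191183454, minus strand), that of Nupr1 -110 to -103 (chr7:126625562-126625591, minus strand), that of Chac1 -193 to -186 (chr2:119351038-119351067, plus strand), and that of Trib3 15 to 22 bases after the start (chr2:152344028-152344057, minus strand).
Atf3: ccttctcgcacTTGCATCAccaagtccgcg
Nupr1: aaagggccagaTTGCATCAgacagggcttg
Trib3: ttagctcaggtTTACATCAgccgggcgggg
Chac1: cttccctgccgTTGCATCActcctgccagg
The 3 genes that passed the test in Clpp KO against wild type are Atf5, Trib3 and Sesn2, and the 250 bases upstream of each start are shown for them. Capitals mark the CCAAT box in either orientation, CCAAT or ATTGG, which 7 of the 10 genes hold in their windows, against 41.1% of all genes with a window. Atf5 has a distal start (chr7:44816659-44816908, minus strand) and an internal one (chr7:44815659-44815908, minus strand), and a box is present upstream of the internal start. Sesn2 (chr4:132510457-132510706, minus strand) has a pair of boxes, and Trib3 (chr2:152344061-152344310, minus strand) has none in these bases.
Atf5, distal start: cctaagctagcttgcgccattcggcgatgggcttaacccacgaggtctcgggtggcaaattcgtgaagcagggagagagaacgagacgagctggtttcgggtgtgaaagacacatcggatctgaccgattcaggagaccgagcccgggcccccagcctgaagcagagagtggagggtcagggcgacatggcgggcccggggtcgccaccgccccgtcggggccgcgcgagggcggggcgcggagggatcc
Atf5, internal start: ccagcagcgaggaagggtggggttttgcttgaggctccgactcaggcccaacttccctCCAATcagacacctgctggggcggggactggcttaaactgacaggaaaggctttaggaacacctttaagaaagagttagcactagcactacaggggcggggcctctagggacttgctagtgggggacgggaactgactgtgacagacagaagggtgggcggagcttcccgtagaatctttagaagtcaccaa
Trib3, upstream: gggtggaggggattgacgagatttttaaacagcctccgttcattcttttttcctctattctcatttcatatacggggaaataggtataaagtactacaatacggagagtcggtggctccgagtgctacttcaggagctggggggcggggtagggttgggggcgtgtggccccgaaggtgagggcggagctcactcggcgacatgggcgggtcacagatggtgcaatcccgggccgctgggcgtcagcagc
Sesn2, upstream: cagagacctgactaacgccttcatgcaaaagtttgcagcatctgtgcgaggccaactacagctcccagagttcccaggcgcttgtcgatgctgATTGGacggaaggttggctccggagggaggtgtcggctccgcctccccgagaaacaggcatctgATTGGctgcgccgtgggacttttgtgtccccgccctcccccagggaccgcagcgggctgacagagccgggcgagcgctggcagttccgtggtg
The cyclic AMP response element TGACGTCA was in 0 of the 10 windows, against 2.03% of genes. The endoplasmic reticulum stress element, CCAAT and then CCACG after NNNNNNNNN, was also in 0 of 10, against 0.137%. A match is a stretch of letters, and no binding was measured.

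Loss of Clpp with Fgf21 present raised 3 of the 10 genes and lowered 0. These were Atf5, a factor of the ATF4 family that in mammalian cells acts in the mitochondrial stress response, Trib3, a pseudokinase that binds ATF4 and dampens its activity, and Sesn2, a leucine sensor that restrains mTORC1. The mRNA of Atf4 itself did not pass the test. Of all 15255 genes, 1.08% were called higher and 0.551% lower in this comparison (edgeR quasi-likelihood test, adjusted p of at most 0.05 after Benjamini-Hochberg adjustment over all genes). The median log2 fold change of the 10 genes was 0.43, beside -0.04 for all genes tested; with library size alone it was -0.35, beside -0.78.

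Atf5 lies on chromosome 7 (chr7:44812256-44816658, minus strand, GRCm38), 797 kb from Fgf21. Its level was 177, 168, 157 and 154 CPM in Clpp KO, against 29.4, 42.4, 30.4 and 54.1 CPM in wild type. The lowest Clpp KO library was far above the highest wild-type library. The log2 fold change was 2.07 ± 0.23 (95% interval 1.59 to 2.55, edgeR adjusted p = 0.000111), and it was 1.28 (adjusted p = 0.00123) with scaling by library size alone.

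Trib3 (chr2:152337422-152344032, minus strand) had 8.25, 6.35, 10.1 and 9.24 CPM in Clpp KO, against 2.02, 3.06, 2.40 and 2.62 CPM in wild type. Again the groups did not overlap. Its log2 fold change was 1.75 ± 0.25 (1.22 to 2.27, edgeR adjusted p = 0.00126), and 0.95 (adjusted p = 0.0112) with library size alone. Sesn2 (chr4:132492032-132510501, minus strand) had 4.89, 5.10, 6.20 and 4.34 CPM in Clpp KO, against 2.46, 2.22, 2.37 and 2.46 CPM in wild type. The wild-type libraries of Sesn2 lay within a narrow band, and all Clpp KO libraries were above it. Its log2 fold change was 1.11 ± 0.17 (0.76 to 1.47, edgeR adjusted p = 0.00174), and 0.36 without a call (adjusted p = 0.124) with library size alone. Each of the 3 calls held in all 16 fits that left out a library.

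A further 3 genes had groups that did not overlap without passing the test. Chac1 (chr2:119351229-119354381, plus strand) encodes an enzyme that breaks down glutathione. It had 13.9, 9.31, 13.7 and 7.51 CPM in Clpp KO, against 2.95, 2.05, 2.61 and 1.72 CPM in wild type. The log2 fold change of 2.25 ± 0.58 (1.00 to 3.5) exceeded that of Atf5, as did its standard error, and its edgeR adjusted p was 0.0703. On the log2 scale the library furthest from its genotype mean for this gene was in another genotype, double KO replicate 3. Without that library, which shares the estimate of the spread, the same fold change had an edgeR adjusted p of 0.00751. Chac1 was called in only 1 of the 16 fits that left out a library, and the highest adjusted p was 0.185, without wild-type replicate 4. Of the 9 other settings 4 called it. Ddit3 (chr10:127290774-127296288, plus strand), which encodes CHOP, a factor that promotes cell death under prolonged stress, had 15.9, 17.5, 16.9 and 20.7 CPM in Clpp KO, against 9.05, 13.9, 8.89 and 14.8 CPM in wild type. The wild-type libraries rich in atrial markers were the higher ones. Its log2 fold change was 0.61 ± 0.17 (0.25 to 0.96, edgeR adjusted p = 0.0785); it was 0.99 (adjusted p = 0.00419) without wild-type replicates 2 and 4 and -0.19 with library size alone. Cebpg (chr7:35046422-35056573, minus strand), whose protein lacks an activation domain and pairs with ATF4, had 25.0, 21.2, 24.2 and 21.4 CPM in Clpp KO, against 18.8, 18.7, 19.7 and 20.4 CPM in wild type. That difference was small, at 0.24 ± 0.09 on the log2 scale (0.05 to 0.43, edgeR adjusted p = 0.151) and -0.51 with library size alone. Groups that did not overlap, with Clpp KO higher, were found for 6 of the 10 genes and for 7.75% of all genes tested.

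The other 4 genes overlapped between Clpp KO and wild type. Atf4 (chr15:80255184-80257541, plus strand) had 85.5, 72.4, 76.3 and 83.0 CPM in Clpp KO, against 56.4, 62.8, 54.9 and 105 CPM in wild type. All 4 Clpp KO libraries were above 3 of the wild-type libraries and below wild-type replicate 4. Its log2 fold change was 0.19 ± 0.21 (-0.26 to 0.63, edgeR adjusted p = 0.616) and -0.58 with library size alone, so a rise of up to 0.63 on the log2 scale lay within the interval. Nupr1 (chr7:126623249-126630861, minus strand), a small stress-induced chromatin protein, had 5.81, 5.74, 4.28 and 5.03 CPM in Clpp KO, against 2.60, 10.5, 2.09 and 16.6 CPM in wild type. The Clpp KO libraries fell between the pairs of wild-type libraries, which were split as their atrial, fat, fibroblast and smooth muscle markers were, with replicate 4 the highest for Nupr1, fat and smooth muscle and replicate 2 for the atrial and fibroblast markers. Its log2 fold change was -0.61 ± 0.49 (-1.66 to 0.45, edgeR adjusted p = 0.478) over all libraries, and 1.16 (adjusted p = 0.0545) without wild-type replicates 2 and 4. The part of these markers in the Nupr1 levels was not tested. Atf3 (chr1:191170296-191218039, minus strand), an immediate early repressor of the same family, had 6.47, 6.91, 4.96 and 17.2 CPM in Clpp KO, against 3.37, 7.17, 3.27 and 42.9 CPM in wild type. Cebpb (chr2:167688915-167690418, plus strand), a C/EBP factor that can pair with ATF4, had 15.9, 10.6, 16.6 and 15.2 CPM in Clpp KO, against 9.14, 12.7, 11.6 and 30.5 CPM in wild type. For both, wild-type replicate 4 was the highest library. The log2 fold changes were -0.68 ± 1.14 for Atf3 (edgeR adjusted p = 0.745) and -0.13 ± 0.35 for Cebpb (adjusted p = 0.842), and they turned to 0.94 for Atf3 and 0.39 for Cebpb without that library.

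**Figure D1:**
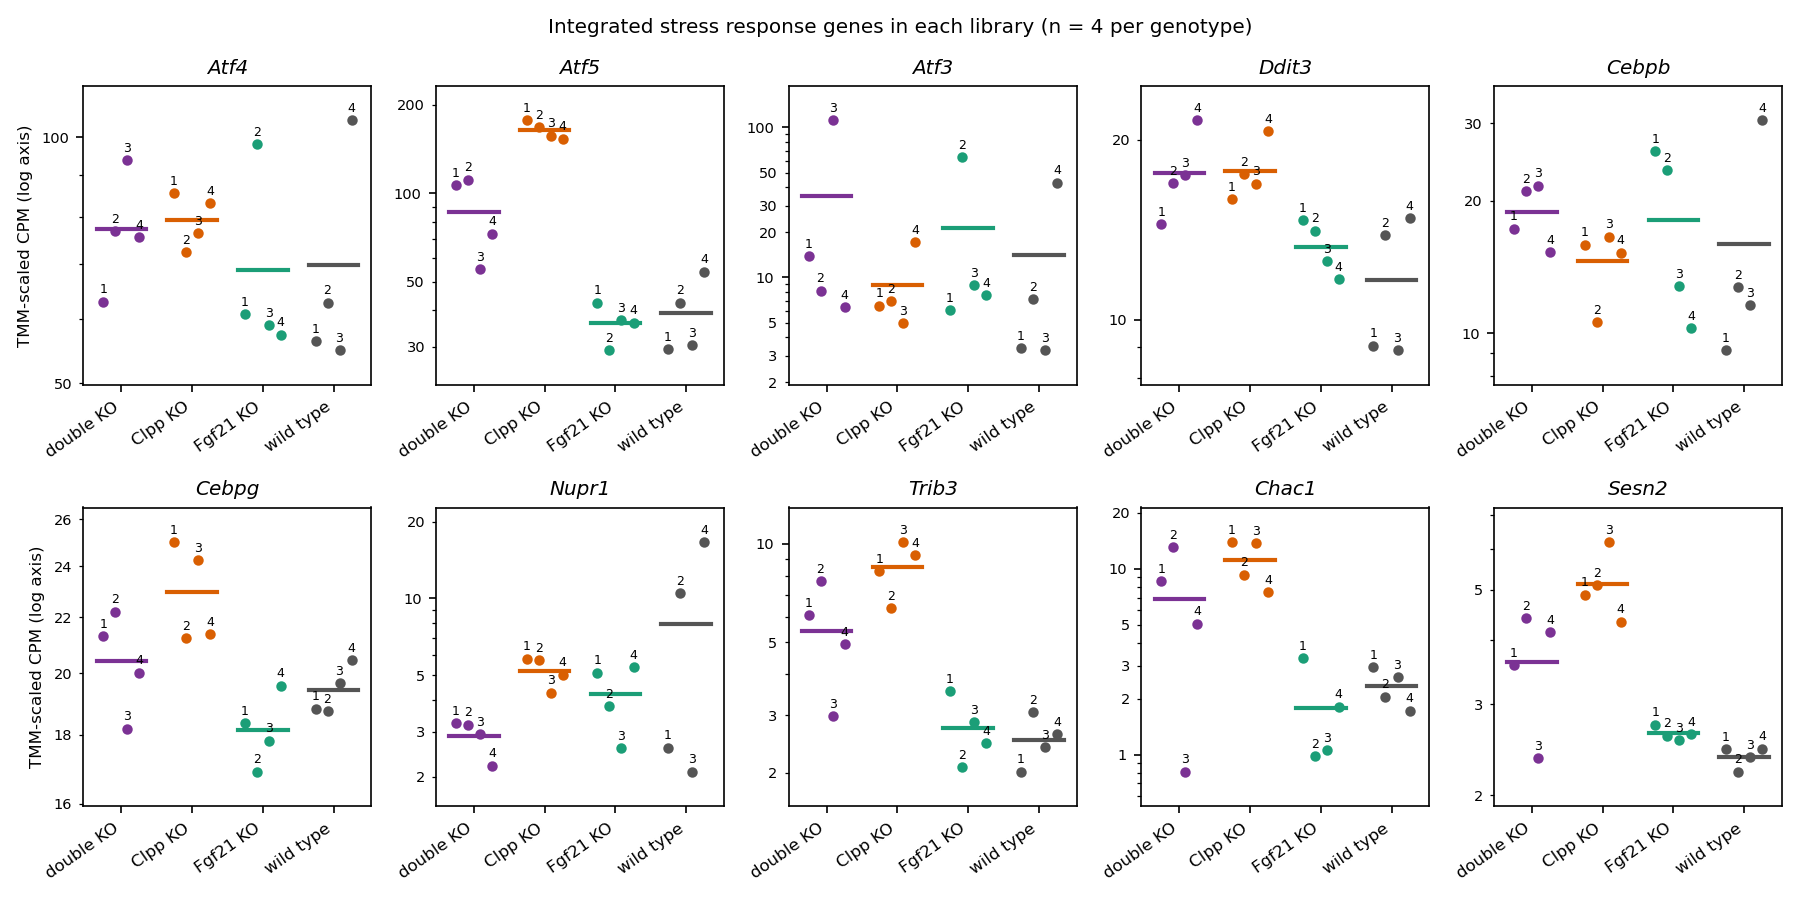
TMM-scaled CPM (log axis, own scale per panel) of the 10 genes in each library, in double KO, Clpp KO, Fgf21 KO and wild type; points are libraries with their replicate number and lines are means (n = 4). Atf5 lies between 154 and 177 CPM in Clpp KO and between 29.4 and 54.1 CPM in wild type, while Atf3 has 1 library far above the others in double KO, Fgf21 KO and wild type.

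Per kb of exon, which allows genes to be set side by side, Atf5 averaged 43.4 CPM in double KO, 82.3 in Clpp KO, 18.2 in Fgf21 KO and 19.6 in wild type. Atf4 averaged 32.8 CPM per kb in double KO, 33.6 in Clpp KO, 29.2 in Fgf21 KO and 29.6 in wild type. Atf5 was thus below Atf4 in the means of both genotypes with Clpp and above it in both without. At the low end, Sesn2 averaged 1.04 CPM per kb in double KO, 1.48 in Clpp KO, 0.758 in Fgf21 KO and 0.683 in wild type. Exon lengths are merged over all annotated transcripts, so these levels depend on the annotation. Of the 31-base stretches of the exons, 19.6% of Cebpb, 6.78% of Ddit3, 2.76% of Atf5, 1.44% of Cebpg and 1.37% of Nupr1 also occur in another gene entry, and 0% of the other 5. The Cebpb overlap was mainly with Tmem189 (19.2%) and its counts are uncertain to that extent.

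Where Fgf21 was absent, loss of Clpp raised 1 of the 10 genes, Atf5, beside 0.826% of all genes called higher. Atf5 had 106, 111, 55.3 and 72.8 CPM in double KO, against 42.4, 29.2, 37.0 and 36.2 CPM in Fgf21 KO. These groups did not overlap, which held with double KO higher for 3.88% of all genes. The log2 fold change was 1.26 ± 0.22 (0.79 to 1.73, edgeR adjusted p = 0.00656), and 0.59 (adjusted p = 0.0764) with library size alone.

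The median over the 10 genes was 0.43 in this comparison, beside -0.01 for all genes; with library size alone it was -0.26, beside -0.70. Trib3 had 6.05, 7.70, 2.98 and 4.94 CPM in double KO, against 3.56, 2.08, 2.86 and 2.47 CPM in Fgf21 KO. Sesn2 had 3.57, 4.41, 2.36 and 4.14 CPM in double KO, against 2.74, 2.61, 2.56 and 2.63 CPM in Fgf21 KO. Chac1 had 8.62, 13.1, 0.807 and 5.07 CPM in double KO, against 3.29, 0.980, 1.05 and 1.81 CPM in Fgf21 KO. For all 3, double KO replicate 3 fell among or below the Fgf21 KO libraries while the other 3 lay above them. Over all libraries the log2 fold change was 0.98 ± 0.25 for Trib3 (edgeR adjusted p = 0.0986), 0.46 ± 0.17 for Sesn2 (adjusted p = 0.484; -0.23 with library size alone) and 1.95 ± 0.59 for Chac1 (adjusted p = 0.289). Without double KO replicate 3 all 3 were called, Trib3 at 1.18 (adjusted p = 0.0108), Sesn2 at 0.62 (adjusted p = 0.0456) and Chac1 at 2.32 (adjusted p = 0.0108). Each of the 3 was called in only 1 of the 16 fits that left out a library. Without double KO replicate 2 the edgeR adjusted p was 0.415 for Trib3, 0.866 for Sesn2 and 0.768 for Chac1. Ddit3 had 14.5, 16.9, 17.4 and 21.6 CPM in double KO, against 14.7, 14.1, 12.5 and 11.7 CPM in Fgf21 KO, an overlap of 1 library. Its log2 fold change was 0.41 ± 0.17 (edgeR adjusted p = 0.628), and -0.30 with library size alone. The other 5 genes, Atf4, Atf3, Cebpb, Cebpg and Nupr1, ran from -0.54 to 0.70 and none was called. Of these, Atf3 turned from 0.70 over all libraries to -1.18 without double KO replicate 3, and with library size alone Atf4 was at -0.53 and Cebpg at -0.52, both called lower (adjusted p = 0.043 and 0.0069). Scaling by library size alone called most of all genes, with a median of all genes below both values.

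**Figure D2:**
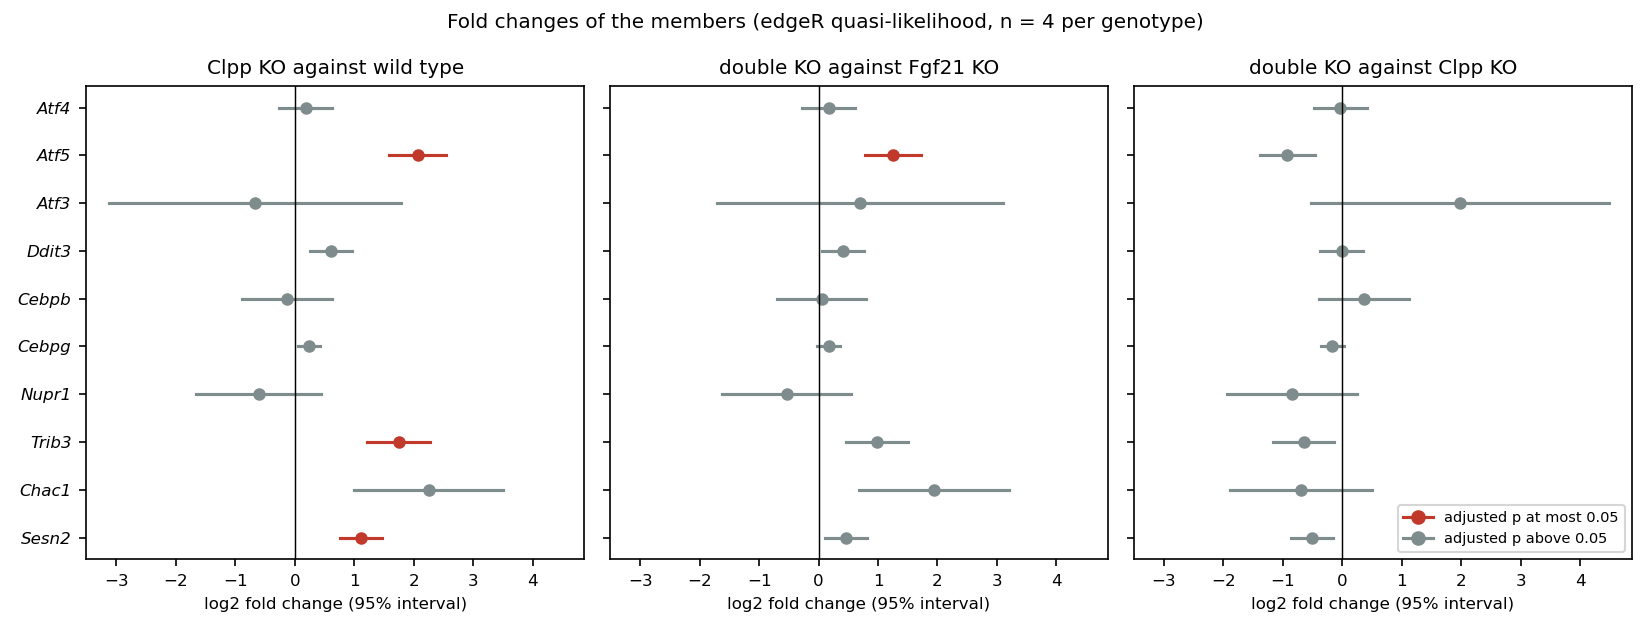
Log2 fold changes of the 10 genes with 95% intervals in Clpp KO against wild type, double KO against Fgf21 KO and double KO against Clpp KO (edgeR quasi-likelihood fit, n = 4 per genotype); red marks an adjusted p of at most 0.05. Atf5, Trib3 and Sesn2 are red in the left panel, Atf5 in the middle panel and none in the right panel.

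Set against wild type, double KO raised Atf5 and Trib3, 2 of the 10 genes, beside 1.05% of all genes called higher and 0.479% lower. Atf5 was higher by 1.15 ± 0.22 on the log2 scale (0.68 to 1.61, edgeR adjusted p = 0.0147) and Trib3 by 1.10 ± 0.25 (0.58 to 1.63, adjusted p = 0.0356), with 0.24 for Atf5 and 0.19 for Trib3 under scaling by library size alone, where neither was called and 3 members, Atf4 (-0.77), Cebpg (-0.83) and Nupr1 (-2.43), were called lower. That setting called most of all genes, and the median of all genes in it lay below the values of Atf4 and Cebpg. Under TMM the calls of Atf5 and Trib3 were close to the threshold: that of Atf5 was lost without double KO replicate 2 (adjusted p = 0.0527), and that of Trib3 in 7 of 16 fits that left out a library. Sesn2 at 0.61 ± 0.17 (edgeR adjusted p = 0.081), Ddit3 at 0.60 ± 0.17 (adjusted p = 0.0852) and Chac1 at 1.56 ± 0.58 (adjusted p = 0.146) were not called, with -0.28 for Sesn2 and -0.37 for Ddit3 under library size alone. Nupr1 at -1.45 ± 0.51 (adjusted p = 0.131) was not called either, and it was 0.31 without wild-type replicates 2 and 4. It was called lower by DESeq2 (-1.44, adjusted p = 0.0376), with wild-type replicates 1 and 3 summed (-1.74, adjusted p = 0.0435), without wild-type replicate 1 (-1.74, adjusted p = 0.0466) and without wild-type replicate 3 (-1.76, adjusted p = 0.0326).

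Whether Fgf21 alters the response to Clpp loss is asked by the interaction, given in the next paragraph. Double KO against Clpp KO gives the effect of Fgf21 loss where Clpp is absent. edgeR called 0 of the 10 genes, beside 0.059% of all genes, with 3 at an unadjusted p under 0.05, beside 3.55% of all genes, and 1 call by DESeq2, beside 0.174% of all genes. The DESeq2 call was Atf5, at -0.93 (adjusted p = 0.0256). In the edgeR fit Atf5 differed by -0.92 ± 0.22 (-1.39 to -0.46, adjusted p = 0.437). Its 4 double KO libraries, at 55.3 to 111 CPM, all lay below the 4 Clpp KO libraries, at 154 to 177 CPM. Trib3 differed by -0.65 ± 0.24 (-1.16 to -0.13) and Sesn2 by -0.50 ± 0.17 (-0.86 to -0.15), both with an edgeR adjusted p of 0.994. Those 2 genes and Atf5 are the 3 under an unadjusted p of 0.05. Leaving out each library gave -1.07 to -0.76 for Atf5, -0.86 to -0.45 for Trib3 and -0.61 to -0.35 for Sesn2. For all 3 the difference was smallest without double KO replicate 3 and largest without double KO replicate 2. Nupr1 also had groups that did not overlap, with 3.25, 3.20, 2.95 and 2.21 CPM in double KO, against 5.81, 5.74, 4.28 and 5.03 CPM in Clpp KO, at -0.84 ± 0.51 (-1.93 to 0.25). With Atf5 this makes 2 of 10 genes wholly lower in double KO, against 2.67% of all genes. Chac1 (-0.69 ± 0.56) and Atf3 (1.98 ± 1.17) overlapped, and without double KO replicate 3 they were at -0.32 for Chac1 and 0.10 for Atf3. The median of the 10 genes was -0.34, beside 0.01 for all genes.

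The interaction, meaning the effect of Clpp loss without Fgf21 minus its effect with Fgf21, was called for 0 of the 10 genes and for 0% of all genes by edgeR. An unadjusted p under 0.05 was reached by 3 genes, beside 1.96% of all genes, and DESeq2 called 0 of the 10, beside 0.0122% of all genes. The estimates for these 3 were -0.81 ± 0.31 for Atf5 (-1.47 to -0.16), -0.76 ± 0.35 for Trib3 (-1.5 to -0.03) and -0.65 ± 0.24 for Sesn2 (-1.15 to -0.15). After adjustment over all genes each p was 1. Without double KO replicate 3 the estimates were -0.65 for Atf5, -0.57 for Trib3 and -0.50 for Sesn2. Nupr1, wholly lower in double KO than in Clpp KO, had an interaction of 0.07 ± 0.71. Over the settings other than leaving out 1 library it ran from -1.71 to 0.36. The interaction and the previous comparison share their double KO and Clpp KO libraries and are not separate evidence.

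With Clpp present, Fgf21 KO differed from wild type in no gene past the test: edgeR called 0 of the 10, beside 0.0459% of all genes, with 0 at an unadjusted p under 0.05 (9.17% of all genes) and 0 by DESeq2 (0.195% of all genes). Sesn2 had groups that did not overlap, as did 1.15% of all genes with Fgf21 KO higher, yet its log2 fold change was only 0.15 ± 0.17 (edgeR adjusted p = 0.733), and -0.06 with library size alone. Atf5 was at -0.11 ± 0.22 (-0.57 to 0.35) and Nupr1 at -0.91 ± 0.50 (-1.97 to 0.15). Without wild-type replicates 2 and 4 these were 0.29 for Atf5 and 0.86 for Nupr1. The remaining genes ran from -0.38 for Chac1 to 0.61 for Atf3. Atf3 was at -0.91 without Fgf21 KO replicate 2, and Chac1 at -0.86 without Fgf21 KO replicate 1.

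The genes differed in how evenly the libraries of a genotype behaved. Atf3 was the least even: it had 13.8, 8.18, 111 and 6.35 CPM in double KO, 6.07, 63.5, 8.89 and 7.59 CPM in Fgf21 KO and 42.9 CPM in wild-type replicate 4. These libraries, double KO 3, Fgf21 KO 2 and wild type 4, held 3578, 3238 and 2093 Atf3 counts. Atf4 was highest in the same 3 libraries, at 93.8, 98.1 and 105 CPM. Other genes of immediate early type did not move alike in them: Nr4a1 was at 79.6 and 82.9 CPM in double KO 3 and Fgf21 KO 2 and at 6.03 to 36.0 in the other 14 libraries, wild type 4 included, while Fos was highest in wild type 4 at 8.38 CPM. Hspa5, the endoplasmic reticulum chaperone, was lowest in double KO 3 and Fgf21 KO 2, at 174 and 198 CPM, against at least 235 CPM elsewhere. Double KO 3 had the lowest Chac1 of all 16 libraries (0.807 CPM from 26 counts) and, within double KO, the lowest Atf5, Trib3, Sesn2, Asns and Gdf15. Double KO 4 was next lowest in its genotype for Chac1 (5.07 CPM), Atf5 (72.8), Trib3 (4.94), Asns (6.29) and Gdf15 (0.930), but not for Sesn2 (4.14). What sets these libraries apart was not tested.

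**Figure D3:**
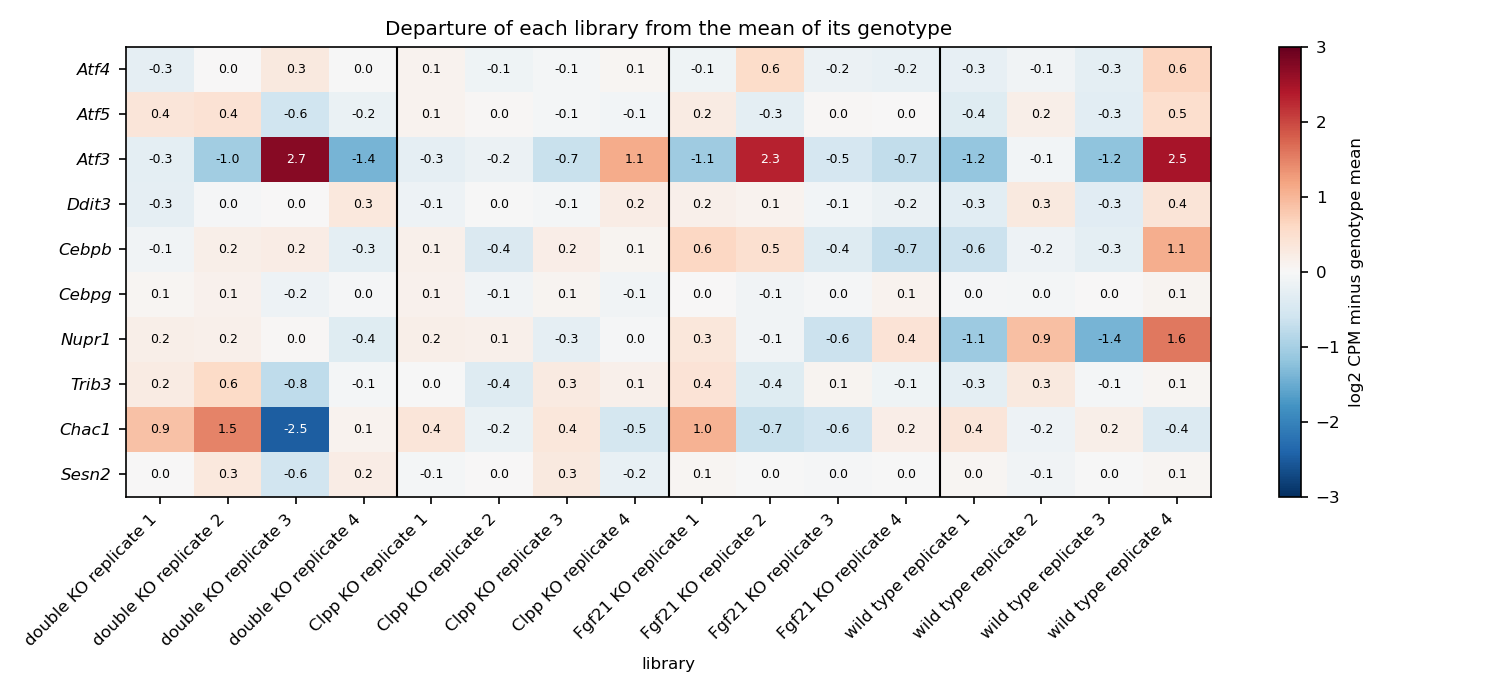
Log2 CPM of each gene in each library minus the mean of its genotype, from blue (lower) to red (higher); columns are libraries, in double KO, Clpp KO, Fgf21 KO and wild type. Atf3 stands out in red in double KO replicate 3, Fgf21 KO replicate 2 and wild-type replicate 4, and Chac1 in blue in double KO replicate 3.

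Over the 16 libraries the genes fell into loosely related patterns, given as a description because the libraries share genotypes. Atf5 ran with Trib3 (Pearson r = 0.96 on log2 CPM, and 0.75 after subtracting the genotype means), with Sesn2 (0.91 and 0.47) and with Chac1 (0.84 and 0.60). Atf4 ran with Atf3 (0.76 and 0.85) and Cebpb (0.69 and 0.77), and hardly with Atf5 (0.35 and 0.02). Atf3 and Chac1 ran in opposite directions, at -0.50, and at -0.74 within genotypes. Double KO replicate 3 held the largest departure of both genes from the genotype mean, at 2.72 for Atf3 and -2.47 for Chac1 on the log2 scale. The correlation without that library was not computed.

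Among 14150 genes, the closest to Atf5 were Asns, the asparagine synthetase (0.99, and 0.95 within genotypes), and Phgdh, the first enzyme of serine synthesis (0.99 and 0.94). Chac1 was closest to Gdf15 (0.92 and 0.85) and Bcl9 (0.89 and 0.81), and Trib3 to Atf5 (0.96 and 0.75) and Phgdh (0.94 and 0.72). Sesn2 was closest to Trib3 (0.92 and 0.62) and Ccnd2 (0.91 and 0.66). The closest genes of the other members were Ifrd1 and Tmbim1 for Atf4 (both 0.89), Gatad2a and Sidt2 for Atf3 (both 0.93), Por and Osgin1 for Ddit3 (both 0.87), Tmem222 (0.88) and Zfp771 (0.84) for Cebpb, Chac1 and Eri1 (both 0.89) for Cebpg, and Arxes2 (0.94) and Car5b (0.92) for Nupr1. Within genotypes the pairs of these other members ran from 0.71 to 0.95.

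**Figure D4:**
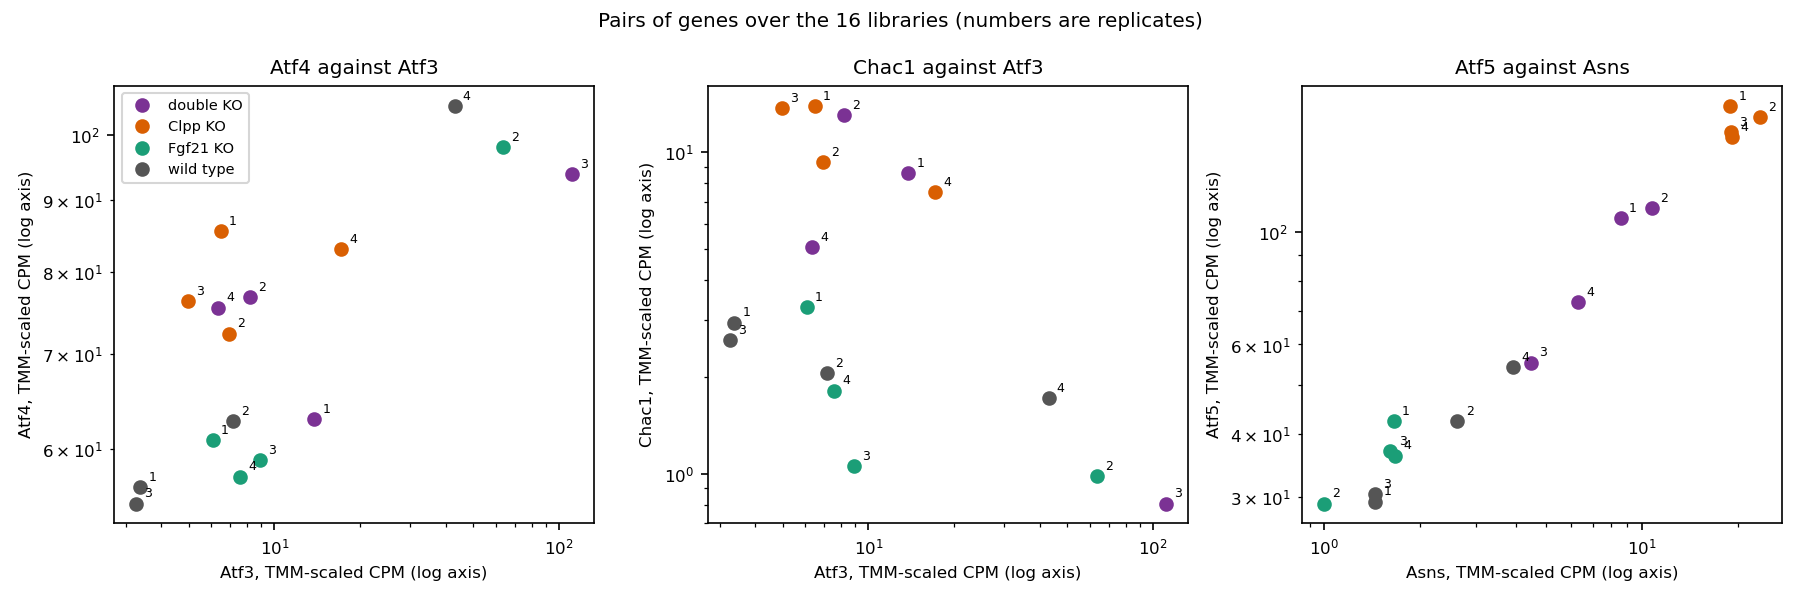
TMM-scaled CPM on log axes for Atf4 against Atf3, Chac1 against Atf3 and Atf5 against Asns; each point is a library, coloured by genotype and marked with its replicate number (n = 16). The 3 libraries highest in Atf3 are also highest in Atf4, and Atf5 rises with Asns from Fgf21 KO and wild type through double KO to Clpp KO.

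The wider pathway was read from gene lists, some of which share genes. Enzymes of amino acid and folate synthesis known as ATF4 targets were raised in Clpp KO against wild type for 7 of 14 genes, with a median log2 fold change of 0.93. Among them were Mthfd2, a mitochondrial folate enzyme (3.84 ± 0.42, edgeR adjusted p = 0.000213), Phgdh (3.29 ± 0.46, adjusted p = 0.00137) and Asns (3.1 ± 0.32, adjusted p = 7.8e-05), at 20.2 CPM in Clpp KO against 2.36 CPM in wild type. Of 12 tRNA synthetases 10 were raised (median 0.67), among them Iars (0.95 ± 0.14) and Gars (0.74 ± 0.11). Of 11 amino acid transporters 1 was raised, Slc7a5 (1.67 ± 0.23). Without wild-type replicates 2 and 4, 7 of the synthetases (median 0.61) and 2 of the transporters were called higher. Of 22 other targets of ATF4 or CHOP 2 were raised, Cars (0.70 ± 0.13), a tRNA synthetase already counted among the 12 above, and Sqstm1 (1.20 ± 0.26), an autophagy receptor. Neither was called without wild-type replicates 2 and 4. No gene of these lists was called lower under TMM scaling. With library size alone the medians were 0.16 for the synthesis enzymes and -0.41 for the transporters. They were -0.055 for the synthetases and -0.59 for the other targets, beside -0.78 for all genes. In that setting, which called most of all genes, 6 synthesis enzymes, 1 transporter, 0 synthetases and 1 other target were called higher. Called lower were 3 synthesis enzymes, 3 transporters, 2 synthetases and 13 other targets.

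In double KO against Fgf21 KO the same lists gave 4 of 14 synthesis enzymes higher, with Mthfd2 at 3.31 ± 0.42 and Asns at 2.34 ± 0.32, and 1 of 11 transporters, Slc7a5 at 1.37 ± 0.23. edgeR called 0 of 12 synthetases (median 0.36), although 10 were higher at an unadjusted p under 0.05 and DESeq2 called 2 higher, beside 4.19% of all genes higher unadjusted and 1.11% by DESeq2. With library size alone, where most of all genes were called, 3 synthesis enzymes were called higher and 3 lower. In that setting 1 transporter was called higher and 3 lower, and 0 synthetases higher and 8 lower. Against Clpp KO, double KO had 0 calls by edgeR in any list. The synthesis enzymes had a median of -0.51, with 7 of 14 lower at an unadjusted p under 0.05 and 4 lower by DESeq2, beside 1.55% of all genes lower unadjusted and 0.0847% by DESeq2.

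Arms of the stress response that lie beside ATF4 had few calls. For the counts that follow, 9.22% of all genes were higher and 12.1% lower at an unadjusted p under 0.05 in Clpp KO against wild type, and DESeq2 called 2.73% higher and 2.42% lower. In Clpp KO against wild type edgeR called 0 of 24 other factors of the ATF/CREB, C/EBP and NFE2L families (3 higher and 4 lower at an unadjusted p under 0.05, 1 higher and 1 lower by DESeq2). It called 0 of 20 targets of the endoplasmic reticulum unfolded protein response (4 higher and 3 lower unadjusted, 1 higher by DESeq2) and 0 of 13 mitochondrial chaperones and proteases (5 higher unadjusted, 0 by DESeq2). Of 21 immediate early entries edgeR called 0 (5 lower unadjusted, 2 lower by DESeq2), with a median of -0.45 that was 0.07 without wild-type replicates 2 and 4. Of 13 p53 targets it called 0 (2 higher and 1 lower unadjusted, 1 higher by DESeq2), and of 5 other Sestrin, Tribbles and CHAC genes 0 (0 unadjusted, 0 by DESeq2). Of 11 eIF2 kinases, phosphatase subunits and upstream factors 1 was raised, Eif2ak2, by 1.02 ± 0.13 in Clpp KO against wild type and by 0.97 ± 0.13 in double KO against Fgf21 KO. Under library size alone 0 of the 11 were called higher and 10 were called lower in each of these comparisons. Eif2ak2 encodes the kinase PKR and is also an interferon-stimulated gene. Interferon-stimulated genes moved with it: 8 of 9 were raised in Clpp KO against wild type (median 2.18) and 9 of 9 in double KO against Fgf21 KO (median 2.44), and their part in the Eif2ak2 values was not tested. Kinase activity and eIF2 phosphorylation are not measured by RNA counts.

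**Figure D5:**
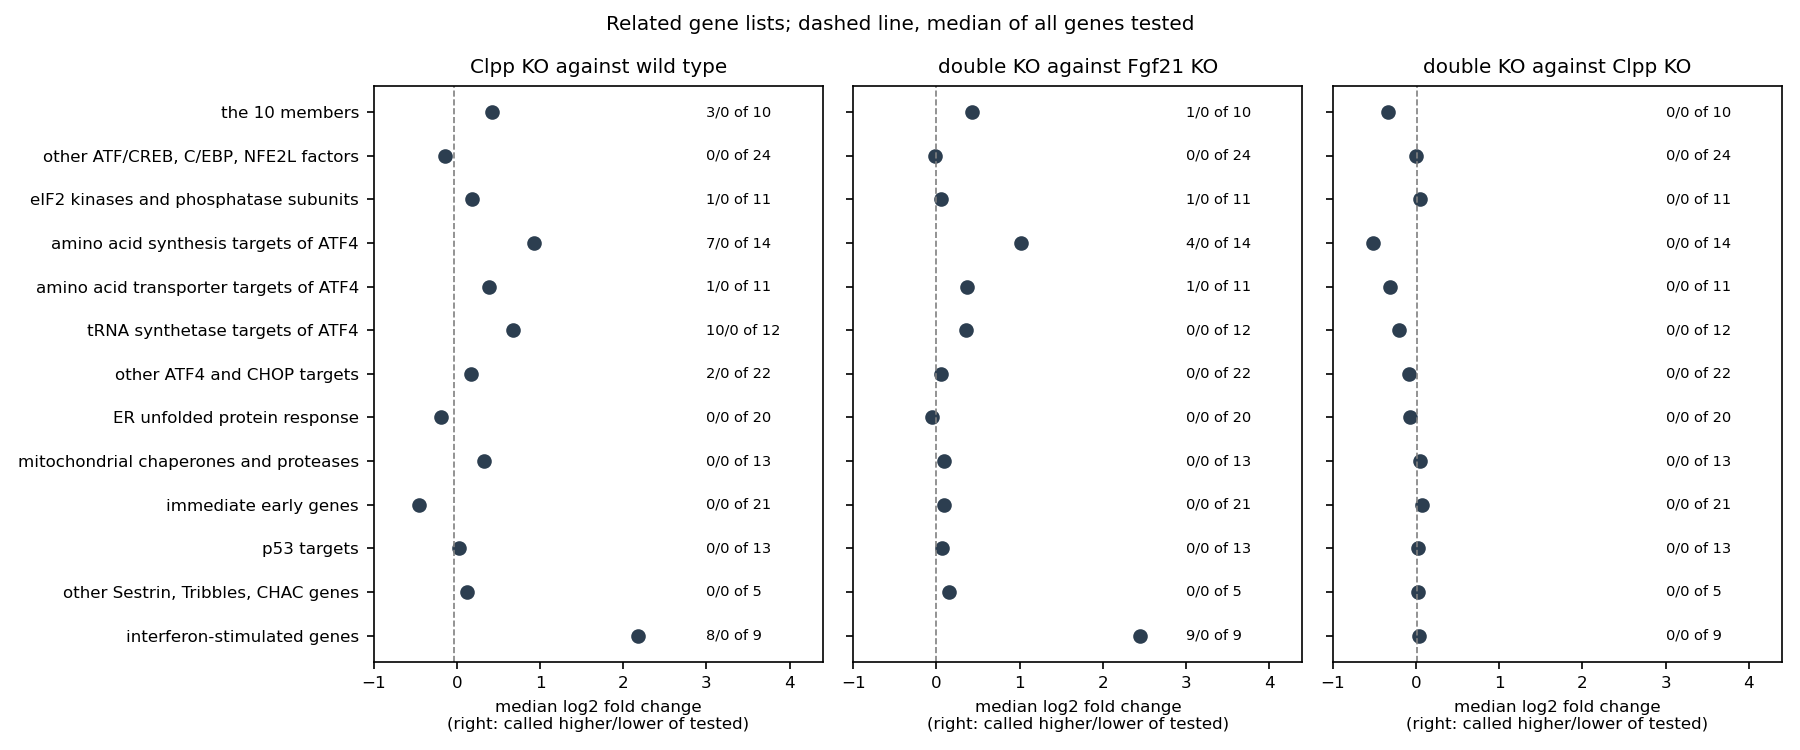
Median log2 fold change of the 10 genes and of 12 related lists in Clpp KO against wild type, double KO against Fgf21 KO and double KO against Clpp KO; the numbers at the right give genes called higher and lower of those tested, and the dashed line is the median of all genes. The synthesis enzymes, tRNA synthetases and interferon-stimulated genes lie to the right in the left panel under TMM scaling (median of the synthetases -0.055 with library size alone), with 7 of 14, 10 of 12 and 8 of 9 called higher, and no list has a call in the right panel.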

How the data were processed

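Whole tissue RNA of mouse heart was extracted with TRIzol and Direct-zol, made into TruSeq stranded mRNA libraries and sequenced on an Illumina NovaSeq, per the labels' protocols. The authors deposited whole-number counts for each gene in 16 libraries. The submitters' processing notes name fastp 0.21.0, kallisto 0.46.1, the build GRCm38.p6, R 4.0.3, DESeq2 1.30.1 and edgeR 3.32.1, without their order. kallisto divides a read among matching transcripts, and the step that gave whole counts and the use of strand are not given in the sources used here, so near-identical and overlapping genes may share counts. Counts were tested as deposited in R 4.3.3.

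Genes were filtered by filterByExpr of edgeR 4.0.16 (count minimum 10, total minimum 15), which kept 15255 of 36499, and scaled by TMM, with factors from 0.674 to 1.83. All 16 libraries entered a robust quasi-likelihood fit (12 residual degrees of freedom, common biological variation 0.249), which gave 6 two-sided comparisons, each adjusted by Benjamini-Hochberg over all genes at a threshold of 0.05, and "called" means past it. A log2 fold change is given ± its standard error and a level ± the SD. Intervals are at 95%. All members passed the filter, so the permutation test planned for members under it was not needed. Steps were tested on simulated counts.

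The alternatives were library size alone, RLE factors, no filter on low counts, DESeq2 1.42.0, a replicate block, a covariate of atrial markers, wild-type replicates 2 and 4 left out, wild-type replicates 1 and 3 summed, each library left out in turn, and, chosen after seeing the data, Fgf21 KO replicate 2 and double KO replicate 3 left out together. Loci come from GENCODE M21 on GRCm38 and promoter windows from RefSeq on GRCm38.p6. The members, gene lists and tests were chosen with earlier results of these data known. Named are the members, Clpp and Fgf21, up to 4 called genes of each list by smallest p, and the 2 genes closest to each member over the libraries. Nr4a1, Fos, Junb, Ucp1, Hspa5 and Gdf15 as single values were chosen after their values were seen.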

Additional observations from a re-analysis of the deposited data

Results flagged for a closer look

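A library was noted where its gap to the nearest other library of its genotype made up an unusually large share of the range of the 4 (Dixon's criterion at 95%). The criterion was applied to CPM without a log, a scale on which a high library stands out more. Of 40 sets of 4 libraries, 7 had such a library. A chance rate of about 5% holds only for independent, normally distributed values, so this count cannot show an excess over chance. The libraries that follow are those noted on this scale. Atf3 had such a library in every genotype: 111 CPM in double KO replicate 3 (others 6.35 to 13.8), 17.2 CPM in Clpp KO replicate 4 (others 4.96 to 6.91), 63.5 CPM in Fgf21 KO replicate 2 (others 6.07 to 8.89) and 42.9 CPM in wild-type replicate 4 (others 3.27 to 7.17). Atf4 was at 98.1 CPM in Fgf21 KO replicate 2 (others 57.3 to 60.8) and at 105 CPM in wild-type replicate 4 (others 54.9 to 62.8). Cebpb was at 30.5 CPM in wild-type replicate 4 (others 9.14 to 12.7). Atf3 and Atf4 both stood apart in Fgf21 KO replicate 2 and wild-type replicate 4. In wild-type replicate 4 the summed atrial markers were 6570 CPM, with 10321 CPM in replicate 2, which did not stand apart for Atf3, Atf4 or Cebpb, and 167 and 174 CPM in the other two. Fat markers summed to 198 CPM in wild-type replicate 4 and to 14.0 to 57.3 CPM in the rest of its genotype, with the brown fat gene Ucp1 at 22.3 CPM. The immediate early gene Junb was at 50.9 CPM there and at 5.13 to 13.2 CPM in the other 15 libraries. The whole immediate early list summed to 656 CPM there and to 379 to 502 CPM in the rest of its genotype. Not all its genes were high there: Nr4a1 was at 20.6 CPM, against 27.1 to 36.0 CPM in the other wild-type libraries. What sets these libraries apart was not tested.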

How the results depend on the processing

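With library size alone the median of all genes moved to -0.78 in Clpp KO against wild type, to -0.70 in double KO against Fgf21 KO, and to -0.91 between double KO and wild type. The members called were then 7 in the first (Atf5, Trib3 and Chac1 higher, Atf4, Cebpb, Cebpg and Nupr1 lower) 2 in the second (Atf4 and Cebpg, lower) and 3 in the third (Atf4, Cebpg and Nupr1, lower; 0 higher), and values turned to -0.58 for Atf4, -0.19 for Ddit3 and -0.51 for Cebpg in the first, to -0.30 for Ddit3 and -0.23 for Sesn2 in the second, to -0.0566 for Sesn2 in Fgf21 KO against wild type, and to -0.37 for Ddit3 and -0.28 for Sesn2 in double KO against wild type. DESeq2 called 5 members, against 3 by edgeR, for Clpp KO over wild type, 2 against 1 for double KO over Fgf21 KO, 1 against 0 for double KO over Clpp KO, 5 against 2 for double KO over wild type, and 0 by either tool for Fgf21 KO over wild type and for the interaction. With the atrial covariate Clpp KO against wild type had 5 calls and double KO against wild type 1. Without Fgf21 KO replicate 2 and double KO replicate 3, chosen after seeing the data, double KO had 3 calls against Fgf21 KO and 4 against wild type. Leaving out each library gave 3 to 4 calls in Clpp KO against wild type; double KO had 1 to 4 against Fgf21 KO and 0 to 4 against wild type, the most without double KO replicate 3 each time and 0 without double KO replicate 2. Without wild-type replicates 2 and 4, values turned to 1.41 for Atf3, 0.49 for Cebpb and 1.16 for Nupr1 in Clpp KO against wild type, to 0.29 for Atf5 and 0.86 for Nupr1 in Fgf21 KO against wild type, and to 0.31 for Nupr1 in double KO against wild type. Leaving out each library gave -1.20 to 0.94 for Atf3, -0.32 to 0.39 for Cebpb and -0.92 to 0.0396 for Nupr1 in Clpp KO against wild type, and -0.22 to 0.0873 for Atf5 in Fgf21 KO against wild type. Deviations of same-numbered libraries from their genotype means had r from -0.23 to 0.36 over 24 pairs, 4 above 0.1. Over 72 pairs of other number and other genotype r ran from -0.50 to 0.50, with 18 above 0.1. These values cannot settle whether the numbers mark a pairing, because marker differences between single libraries also enter them. The labels do not say, and the main fit holds no pairing. With a replicate block double KO against wild type had 1 call in place of 2, and no other count of members changed. Over all genes, edgeR called 249 in Clpp KO against wild type; the settings other than leaving out 1 library gave 146 (replicate block) to 973 (atrial covariate), with 848 by DESeq2 and 11933 with library size alone. For double KO these counts were 136, with 109 to 241 and 10858, against Fgf21 KO, 9, with 6 to 37, against Clpp KO, and 233, with 148 to 1016 and 13124, against wild type. There were 7, with 6 to 34, for Fgf21 KO over wild type and 0, with 0 to 3, for the interaction. Leaving out each library gave 114 to 949 calls in Clpp KO against wild type, 129 to 1116 in double KO against wild type, 94 to 160 in double KO against Fgf21 KO, 6 to 10 in double KO against Clpp KO, 5 to 8 in Fgf21 KO against wild type and 0 for the interaction. Without wild-type replicate 3, double KO against wild type had 413 higher and 703 lower, beside 160 and 73 over all libraries, and Clpp KO against wild type 454 and 495, beside 165 and 84. The causes were not tested beyond what each setting leaves out.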
